A study of Mus musculus with 2 samples.

Results

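The D cyclins and the inhibitors of their kinases were followed as 9 genes: the D cyclins Ccnd1, Ccnd2 and Ccnd3, their kinases Cdk4 and Cdk6, the CIP/KIP inhibitors Cdkn1a (p21), Cdkn1b (p27) and Cdkn1c (p57), and the INK4 inhibitor Cdkn2c (p18). They were taken by gene symbol, and all 9 were found among the 27179 features measured. The data are single-cell RNA counts of mouse mammary epithelial cells, depleted of Ter119, CD31 and CD45 positive cells by sorting, from adult females at 18.5 days of pregnancy. There were 2 libraries, 1 labelled EhfKO (mice with a deletion of Ehf, a transcription factor of the ETS family that epithelial cells make) and 1 labelled WT (wild type), and each pooled the glands of 2 females of 1 genotype. How the deletion was made is not stated in the labels, and every cell of either library came from such a pool. With 1 library per genotype there was no replicate check and no test, and each interval below is a 95% interval that covers counting error only.

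D cyclins bind and activate CDK4 and CDK6, and these kinases phosphorylate the retinoblastoma protein, which releases E2F factors and lets a cell pass from G1 into S phase. INK4 proteins bind the kinases and keep the cyclins off, while CIP/KIP proteins inhibit CDK2 complexes and also take part in the assembly of cyclin D complexes. In the mammary gland, cyclin D1 is known for its part in the lobuloalveolar growth of pregnancy, and alveolar cells later leave the cycle as they take up milk secretion.

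A sequence is shown for Cdk4 because its level in the knockout library lay above the wild type one in each of the 3 epithelial classes described below. These are the 250 bases before its RefSeq start site, chr10:127063285-127063534 on the plus strand of GRCm38.p6, from RefSeq, with capitals marking CACGTG, the letters that the MYC and USF families of transcription factors are known to bind.
Cdk4: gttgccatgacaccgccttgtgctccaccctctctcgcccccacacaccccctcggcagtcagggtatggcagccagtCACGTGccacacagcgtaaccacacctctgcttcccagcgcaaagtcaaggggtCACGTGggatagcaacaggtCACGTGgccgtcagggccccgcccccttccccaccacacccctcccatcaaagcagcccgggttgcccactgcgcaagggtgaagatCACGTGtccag
The motif occurred 4 times, with its first base at -172, -118, -98 and -11 from the start site, and it reads the same on both strands. At least 1 match was present in 6.02% of 32851 mouse promoters of the same length, and at least 4 matches in 7 of them. GGAA, the core letters bound by ETS factors, was present on either strand at 2 places in this window and in 93.4% of all promoters. A match describes letters and is neither a measured site nor a cause.

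Promoter entries were found for 6 of the 9 genes, namely Ccnd3, Cdk4, Cdk6, Cdkn1a, Cdkn1b and Cdkn2c. In GRCm38 coordinates Ccnd1 lies on chr7:144929931-144939925 (minus strand), Ccnd2 on chr6:127125162-127152193 (minus), Ccnd3 on chr17:47505051-47599691 (plus) and Cdk4 on chr10:127063534-127067920 (plus). Cdk6 lies on chr5:3341485-3531008 (plus), Cdkn1a on chr17:29090976-29100727 (plus), Cdkn1b on chr6:134920401-134925513 (plus), Cdkn1c on chr7:143458339-143461050 (minus) and Cdkn2c on chr4:109660876-109667189 (minus). All are protein-coding genes, and counts were taken from transcript ends over the whole gene, so they do not separate isoforms.

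The knockout library held 40066795 unique molecular identifiers (UMIs, each standing for 1 captured transcript) in 7275 barcodes and the wild type library 48720938 in 11258, of which 6523 and 9089 cells were kept. Clusters built without the 9 genes were joined into luminal secretory cells (milk-producing alveolar and progenitor-like cells, 810 knockout and 2559 wild type), basal cells (5507 and 6222), hormone-sensing cells (145 and 126) and non-epithelial cells (61 and 182). All fixed alveolar, luminal progenitor and basal markers were detected in both luminal secretory and basal cells of each library, so detection does not check the class names. Their summed levels (scaled CPM, defined below) did differ. Basal markers had 28602.5 in knockout and 38995.6 in wild type basal cells, against 730.898 and 714.326 in luminal secretory cells. Alveolar markers had 80423.7 and 603581 in luminal secretory cells, against 1019.76 and 14186.5 in basal cells. Luminal progenitor markers differed less, at 6765.59 and 7138.1 against 2411.06 and 2284.69. Ehf RNA was lower in the knockout library but present: 1062 knockout and 3344 wild type UMIs in luminal secretory cells, a log2 ratio of -1.30 (-1.40 to -1.20). The labels do not say which exon was deleted, so this 3′ end count does not check the deletion. The 2 libraries shared 25 barcodes.

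Levels are given as scaled CPM, the UMIs of a gene as a share of its pool's total (CPM), brought to a common scale across pools by the median gene. They compare 1 gene between pools and not genes with each other. A gene counted as higher or lower from 1.5-fold on, with at least 50 UMIs over both pools, a rule of size. The scale matters in luminal secretory cells because 12 milk protein genes gave 10.6% of knockout but 39.4% of wild type UMIs. With plain CPM of all UMIs, the median of all genes there moved to a log2 ratio of 0.86, against 0.07 on the scale used here.

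Ccnd1, the cyclin D1 gene, was the D cyclin of luminal secretory cells, and its RNA was about 4 times as high in the knockout library. It had 9060 UMIs in knockout and 2758 in wild type luminal secretory cells, scaled levels of 674 (660 to 688) and 160 (154 to 166). This was a 4.21-fold difference, a log2 ratio of 2.07 (2.01 to 2.14), and it stood at 2.87 with plain CPM and 2.31 with CPM outside milk protein genes. In basal cells the level of Ccnd1 was 175 in the knockout against 94.4 in the wild type, a log2 ratio of 0.89 (0.80 to 0.97). Hormone-sensing cells had 42 and 21 UMIs of Ccnd1, levels of 31.1 and 26.9, and the log2 ratio of 0.21 (-0.58 to 1.04) included 0. Knockout luminal secretory cells thus had the highest level of the 6 pools, followed by knockout basal, wild type luminal secretory and wild type basal cells with intervals apart from each other. With plain CPM the wild type luminal secretory and basal levels of Ccnd1 were 95.9 and 96.6, so the order of these 2 pools rests on the scale. The 2 hormone-sensing pools came last and overlapped.

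The share of cells with Ccnd1 RNA differed in the same way. Cells were thinned to 2000 UMIs, and shallower ones were left out of all thinned shares, 27 knockout and 104 wild type luminal secretory, 216 and 3065 basal and 2 and 3 hormone-sensing cells. After thinning, 64.4% (60.9 to 67.7) of knockout against 15.7% (14.3 to 17.2) of wild type luminal secretory cells had at least 1 Ccnd1 UMI. Without thinning the shares were 89.1% and 45.3%, at median depths of 10349.5 and 8896 UMIs. In hormone-sensing cells the thinned shares were 6.29% and 2.44%, at median depths of 7623 and 4329.5 UMIs. Transcripts that carry over from luminal secretory cells were estimated to give 16.3% and 30.7% of the Ccnd1 level there, and under 5% of the level in either basal pool.

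Ccnd2, the cyclin D2 gene, was a basal gene in both libraries. Basal cells had 11825 knockout and 6096 wild type UMIs, levels of 468 (460 to 477) and 408 (398 to 419), a log2 ratio of 0.20 (0.15 to 0.24) that did not reach the fold rule. Luminal secretory cells had levels of 10.6 and 6.33, from 143 and 109 UMIs, which was 44.0-fold below the basal level in the knockout and 64.5-fold below it in the wild type. The knockout over wild type log2 ratio in luminal secretory cells was 0.75 (0.38 to 1.12). Carry-over from basal cells, estimated from 6 basal genes, could give 136% and 144% of these luminal secretory levels, so Ccnd2 there was no higher than carry-over alone would give. After thinning, 2.43% of knockout against 0.774% of wild type luminal secretory cells had a Ccnd2 UMI, against 52.7% and 53.2% of basal cells. The wild type basal share covers the 3157 deeper of 6222 cells, and without thinning the basal shares were 68.5% and 48.3%.

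Ccnd3, the cyclin D3 gene, varied least of the D cyclins across the epithelial classes. Its level in luminal secretory cells was 27.8 in the knockout (374 UMIs) and 25.5 in the wild type (439 UMIs), a log2 ratio of 0.13 (-0.08 to 0.33). Basal cells had 37.9 and 34.6, and hormone-sensing cells 43.0 and 52.5, from 58 and 41 UMIs. Both luminal secretory pools lay below the 4 others, whose neighbours overlapped in order. In each library hormone-sensing cells were above luminal secretory cells in Ccnd3, by log2 0.63 (0.20 to 1.03) in the knockout and 1.04 (0.54 to 1.51) in the wild type.

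**Figure D1:**
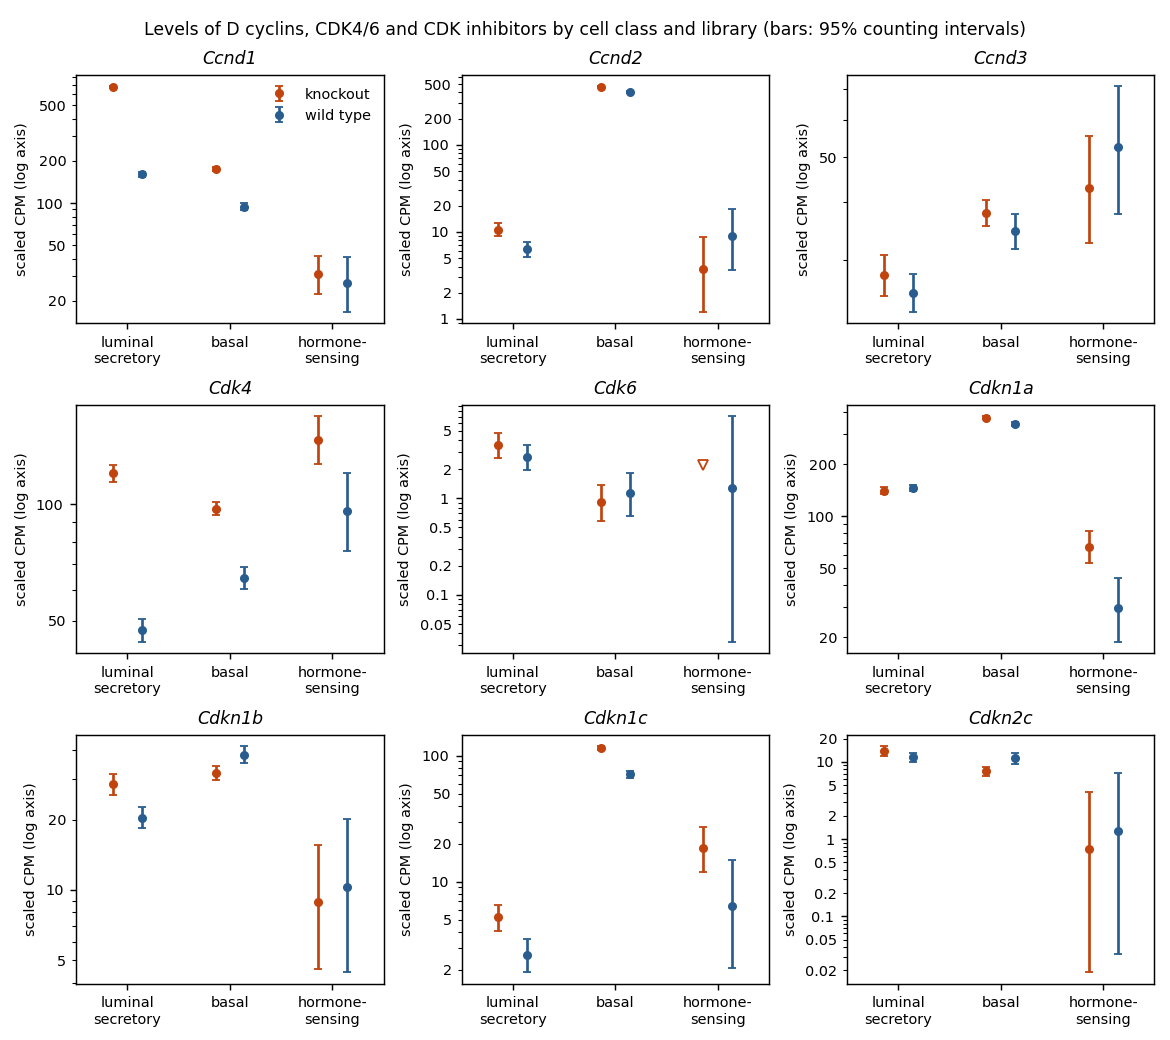
Scaled CPM (log axes, which differ between panels) of the 9 genes in luminal secretory, basal and hormone-sensing cells of the knockout (orange) and wild type (blue) library. Points are sums over the cells of a pool, bars are 95% Poisson intervals, and the open triangle marks the level of 3 counts where Cdk6 had 0 UMIs. Ccnd1 stands at 674 in knockout luminal secretory cells and at 160 in wild type ones, while Ccnd2 and Cdkn1c are highest in basal cells of both libraries.

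In each epithelial class a different gene therefore gave the largest share of the D cyclin UMIs. Of 9577 D cyclin UMIs in knockout luminal secretory cells, 94.6% were Ccnd1, and of 3306 in the wild type, 83.4%. Ccnd3 gave 3.91% and 13.3% of them. Basal cells drew 68.8% of 17190 D cyclin UMIs in the knockout against 76.0% of 8021 in the wild type from Ccnd2, and 25.6% and 17.6% from Ccnd1. In hormone-sensing cells Ccnd3 gave 55.2% (45.2 to 65.0) of 105 and 59.4% (46.9 to 71.1) of 69 D cyclin UMIs. These shares are of UMIs within a pool, so they do not depend on the scaling. Like the levels, they do not compare transcript amounts between genes.

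**Figure D2:**
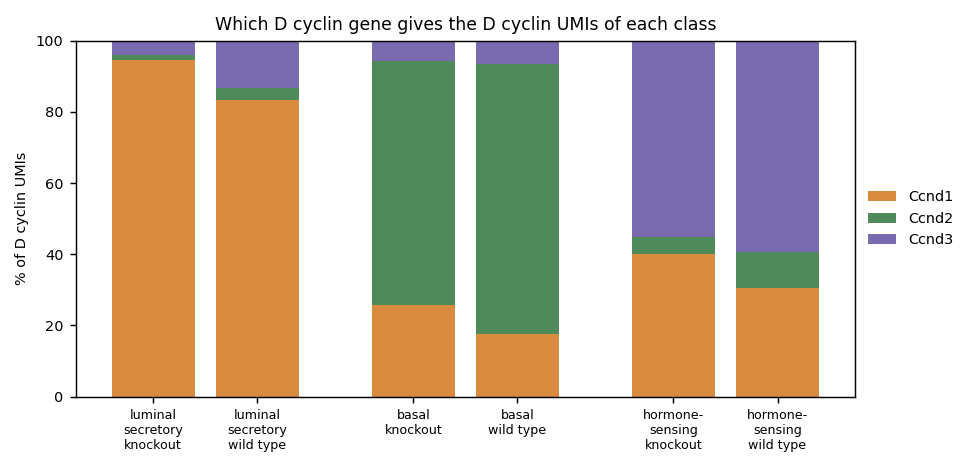
Share of D cyclin UMIs (vertical axis, percent) from Ccnd1, Ccnd2 and Ccnd3 in each epithelial class and library. Ccnd1 fills 94.6% and 83.4% of the luminal secretory bars, Ccnd2 68.8% and 76.0% of the basal bars, and Ccnd3 55.2% and 59.4% of the hormone-sensing bars.

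The summed level of the 3 D cyclins was 712 in knockout and 192 in wild type luminal secretory cells, against 681 and 537 in basal and 77.8 and 88.4 in hormone-sensing cells. Wild type luminal secretory cells thus stood below basal cells of the same library, and knockout ones near them. After thinning, 67.3% (63.9 to 70.6) of knockout against 18.8% (17.3 to 20.4) of wild type luminal secretory cells had a UMI of any D cyclin. In basal cells the thinned shares were 65.7% of 5291 and 62.8% of 3157 cells, against 79.0% and 57.0% of all basal cells without thinning. The thinned hormone-sensing shares were 18.2% and 16.3%. Non-epithelial cells, a fibroblast, a pericyte and an immune cluster whose leading genes also included endothelial Cdh5, had Ccnd1 levels of 237 and 261 and Ccnd2 levels of 225 and 196.

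Cdk4, a kinase that D cyclins activate, was far above the fold rule in knockout luminal secretory cells and just above it in the other 2 epithelial classes. Luminal secretory cells had 1613 knockout and 814 wild type UMIs, levels of 120 (114 to 126) and 47.3 (44.1 to 50.6), a log2 ratio of 1.34 (1.22 to 1.47). Basal cells had levels of 97.3 and 64.5, a log2 ratio of 0.59 (0.49 to 0.70), and hormone-sensing cells 147 and 96.1, a log2 ratio of 0.61 (0.22 to 1.01). The basal ratio fell just below the 1.5-fold line with equal weight per cell, to 0.54, and the hormone-sensing one with other scalings. In the knockout library Cdk4 was higher in luminal secretory than in basal cells by log2 0.30 (0.21 to 0.39), and in the wild type it was lower by log2 -0.45 (-0.59 to -0.31), with neither past the fold rule. With plain CPM the wild type ratio was -1.22, past the rule. Wild type luminal secretory cells were the lowest of the 6 pools.

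Cdk6, the second kinase, was near the limit of detection everywhere. It had 48 and 46 UMIs in luminal secretory cells, levels of 3.57 and 2.67, and a log2 ratio of 0.42 (-0.20 to 1.03). Basal cells had 23 and 17 UMIs among 5507 and 6222 cells. Hormone-sensing cells had 0 UMIs in the knockout, where the limit set by 3 counts is 2.22 scaled CPM, and 1 UMI in the wild type. Luminal secretory cells were above basal cells in both libraries, by log2 1.97 (1.23 to 2.76) and 1.23 (0.40 to 2.13), but with plain CPM the wild type ratio was 0.46, under the fold rule.

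Among the inhibitors, Cdkn1a was high in basal cells and had nearly equal levels in the 2 luminal secretory pools. This gene encodes p21, a target of p53 that inhibits CDK2 complexes. Luminal secretory cells had 1889 knockout and 2514 wild type UMIs, levels of 140 and 146, a log2 ratio of -0.06 (-0.14 to 0.03) that turned positive with the other scalings, to 0.74 with plain CPM and 0.18 outside milk protein genes. Basal levels were 373 and 343, a log2 ratio of 0.12 (0.07 to 0.17). Hormone-sensing cells differed more, with 90 and 23 UMIs, levels of 66.7 and 29.5 and a log2 ratio of 1.18 (0.50 to 1.91). Carry-over could give 25.6% of the wild type hormone-sensing level.

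Cdkn1b encodes p27, which restrains CDK2 in resting cells. Its level was 28.4 in knockout and 20.4 in wild type luminal secretory cells (382 and 352 UMIs), a log2 ratio of 0.48 (0.26 to 0.69) below the fold rule, and 31.8 and 38.1 in basal cells, a log2 ratio of -0.26 (-0.42 to -0.10). The 2 classes thus differed in direction, and wild type basal cells were the highest of the 6 pools. Hormone-sensing cells had only 12 and 8 UMIs.

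Cdkn1c encodes p57, a CIP/KIP inhibitor transcribed from the maternal chromosome. Among the epithelial classes it was the most basal of the inhibitors, with 2892 and 1063 UMIs and levels of 114 (110 to 119) and 71.2 (67.0 to 75.6), a log2 ratio of 0.69 (0.58 to 0.79). It was not confined to basal cells, as non-epithelial cells had levels of 129 (99.8 to 165) in the knockout and 138 (116 to 164) in the wild type. Within the 10 basal clusters that both libraries shared, the knockout over wild type ratio of Cdkn1c had a median of 1.18-fold and passed 1.5-fold in 2. Luminal secretory cells had 70 and 45 UMIs, levels of 5.21 and 2.61, or 22.0-fold and 27.3-fold below basal cells. Their knockout over wild type log2 ratio was 0.99 (0.43 to 1.57), and carry-over from basal cells could give 67.8% and 60.7% of these levels. That estimate is loose. It uses the median of 6 basal genes, 3.08% of the basal level in the knockout (lowest gene 2.35%, highest 10.0%). In the wild type the median was 2.23% (lowest gene 1.75%, highest 4.54%). Hormone-sensing cells had 25 and 5 UMIs, levels of 18.5 and 6.41, too few for a call.

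Cdkn2c encodes p18, an INK4 inhibitor of CDK4 and CDK6. Its level was 13.8 in knockout and 11.5 in wild type luminal secretory cells (186 and 198 UMIs), a log2 ratio of 0.27 (-0.03 to 0.56). In basal cells it was 7.56 and 11.1, a log2 ratio of -0.56 (-0.86 to -0.25), close to the fold rule on the lower side. Each hormone-sensing pool had 1 UMI.

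Counted over the genes, 4 of 9 were higher and 0 lower in the knockout luminal secretory cells (Ccnd1, Cdk4 and, with the carry-over given above, Ccnd2 and Cdkn1c), where 17.9% of 11135 genes were higher and 15.9% lower. The median log2 ratio of the 9 was 0.48 beside 0.07 for all genes, and with plain CPM all 9 were higher by the fold rule, as were 68.1% of all genes. In basal cells 3 of 8 were higher (Ccnd1, Cdk4 and Cdkn1c) and 0 lower, where 5.05% of 12208 genes were higher and 8.07% lower, with a median of 0.16 beside -0.06. In hormone-sensing cells 2 of 4 were higher (Cdk4 and Cdkn1a) and 0 lower, where 11.1% of 4249 genes were higher and 7.18% lower.

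Cells were then split by the cell cycle, because cycling cells were commoner in knockout luminal secretory cells. A cell was called cycling with at least 3 UMIs of Birc5, Ccnb1, Cdk1, Cenpf, Mki67, Nusap1, Top2a and Ube2c together, genes of S phase to mitosis that include none of the 9. Cycling cells made up 44.1% (40.6 to 47.6) of knockout against 17.7% (16.3 to 19.3) of wild type luminal secretory cells, and 3.32% and 3.34% of basal cells. They were also the deeper cells, with a median of 17846 and 14822.5 UMIs against 7640 and 8222 in non-cycling luminal secretory cells. The rule counts UMIs without thinning, and milk protein genes gave 10.6% of knockout against 39.4% of wild type luminal secretory UMIs. Wild type cells of like depth thus had fewer UMIs of other genes, and the cycling shares above are not matched for this.

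Ccnd1 was higher in the knockout to a like degree in both states. In non-cycling luminal secretory cells its level was 634 (2471 UMIs) in the knockout against 158 (1785 UMIs) in the wild type, a log2 ratio of 2.00 (1.92 to 2.09), and in cycling cells 693 and 166, a log2 ratio of 2.06 (1.96 to 2.16). Cdk4 levels were 105 and 42.3 in non-cycling cells, a log2 ratio of 1.31 (1.12 to 1.51), and 126 and 57.4 in cycling cells, a log2 ratio of 1.14 (0.96 to 1.32). Cdkn1a ratios were -0.13 (-0.27 to 0.01) and 0.07 (-0.05 to 0.20), within the fold rule in both states. Cdkn1b was 29.7 against 19.0 in non-cycling cells, a log2 ratio of 0.64 (0.31 to 0.98), and 28.0 against 23.4 in cycling cells, a log2 ratio of 0.26 (-0.05 to 0.56). The remaining calls, Ccnd2 at 1.47 and Cdkn1c at 1.67 in non-cycling cells, rested on 63 and 66 UMIs and on 34 and 31 UMIs, with the carry-over given above.

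Non-cycling luminal secretory cells thus had 5 of 8 genes higher in the knockout and 0 lower, where 16.9% of 9710 genes were higher and 17.3% lower. Cycling cells had 3 of 8 higher (Ccnd1, Cdk4 and Cdkn1c) and 0 lower, where 13.3% of 9903 genes were higher and 13.8% lower. The Cdkn1c call in cycling cells had only 36 and 14 UMIs and an interval of -0.27 to 1.67. Among basal cells, Ccnd1 was higher in the knockout by log2 0.83 (0.49 to 1.18) in cycling and 0.89 (0.80 to 0.98) in non-cycling cells. Cdk4 was higher by 0.61 and 0.59 in these states. Cdkn1c was past the rule in non-cycling cells alone, at 0.72 (0.62 to 0.83) against 0.27 (-0.09 to 0.63) in cycling ones, a difference that was not tested. Cdkn2c was lower in non-cycling basal cells of the knockout, at -0.62 (-1.07 to -0.17). Cycling basal cells thus had 2 of 8 genes higher and 0 lower, where 8.05% of genes were higher and 7.96% lower, and non-cycling ones 3 of 8 higher and 1 lower, where 5.14% and 7.90% were. With plain CPM, 63.3% of all genes were higher in non-cycling and 58.9% in cycling luminal secretory cells of the knockout, and 8 of 8 and 7 of 8 of these genes.

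**Figure D3:**
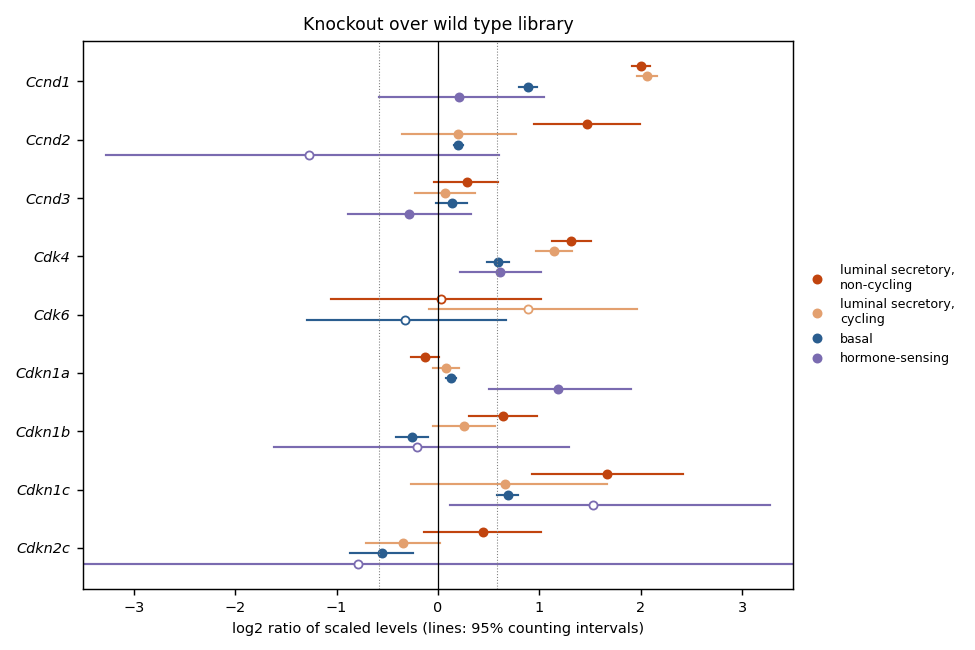
Log2 ratio of scaled levels, knockout over wild type, for the 9 genes in non-cycling and cycling luminal secretory cells, basal cells and hormone-sensing cells. Lines are 95% counting intervals cut at the axis limits, filled points have at least 50 UMIs over both pools, open points fewer, and dotted lines mark 1.5-fold. Ccnd1 stands at 2.00 and 2.06 in the 2 luminal secretory states, while Cdkn1a stays within the dotted lines there.

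Between states of 1 library, Ccnd1 stayed within the fold rule in luminal secretory cells, and Cdkn2c was higher in the cycling ones. Cycling over non-cycling luminal secretory cells gave a Ccnd1 log2 ratio of 0.13 (0.06 to 0.20) in the knockout against 0.07 (-0.04 to 0.19) in the wild type, and a Cdk4 ratio of 0.27 (0.10 to 0.43) and 0.44 (0.24 to 0.65). Cdkn2c was 15.5 in cycling and 10.0 in non-cycling knockout cells, a log2 ratio of 0.63 (0.11 to 1.18), and 19.7 and 7.35 in wild type cells, a log2 ratio of 1.42 (1.00 to 1.85). Ccnd2 (-0.94, -1.44 to -0.44) and Cdkn1c (-1.20, -1.92 to -0.48) were lower in cycling knockout cells. When cycling was called after thinning they stood at 0.021 and -0.27, and basal carry-over could give 136% and 67.8% of their levels over all knockout luminal secretory cells. By the rule as set, 1 of 8 genes was higher and 2 lower in the knockout, where 7.82% of genes were higher and 6.94% lower, and 1 of 7 was higher and 0 lower in the wild type, where 7.32% of genes were higher and 4.51% lower. With plain CPM the wild type had 3 higher (Ccnd2, Cdk4 and Cdkn2c), as were 17.1% of genes.

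In basal cells the level of Cdkn2c was far higher in cycling than in non-cycling cells. Its level was 64.5 in cycling and 3.78 in non-cycling knockout cells (102 and 89 UMIs), and 89.3 and 5.82 in wild type cells (85 and 81 UMIs). The log2 ratios were 4.09 (3.67 to 4.52) and 3.94 (3.48 to 4.40), or 17.1-fold and 15.3-fold. After thinning, 15.9% and 18.2% of cycling but 0.881% and 1.15% of non-cycling basal cells had a Cdkn2c UMI. In the knockout Cdk4 and Ccnd3 were also higher in cycling basal cells, each by log2 0.59, so 3 of 8 genes were higher and 0 lower, where 11.9% of genes were higher and 15.7% lower. In the wild type Cdkn2c alone of 8 genes was higher and 0 were lower, where 13.2% of genes were higher and 19.2% lower, and Cdk4 stood at 0.57 (0.24 to 0.89). Cdkn1a was lower in cycling basal cells by log2 -0.20 (-0.33 to -0.07) in the knockout against -0.53 (-0.73 to -0.34) in the wild type, within the fold rule.

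**Figure D4:**
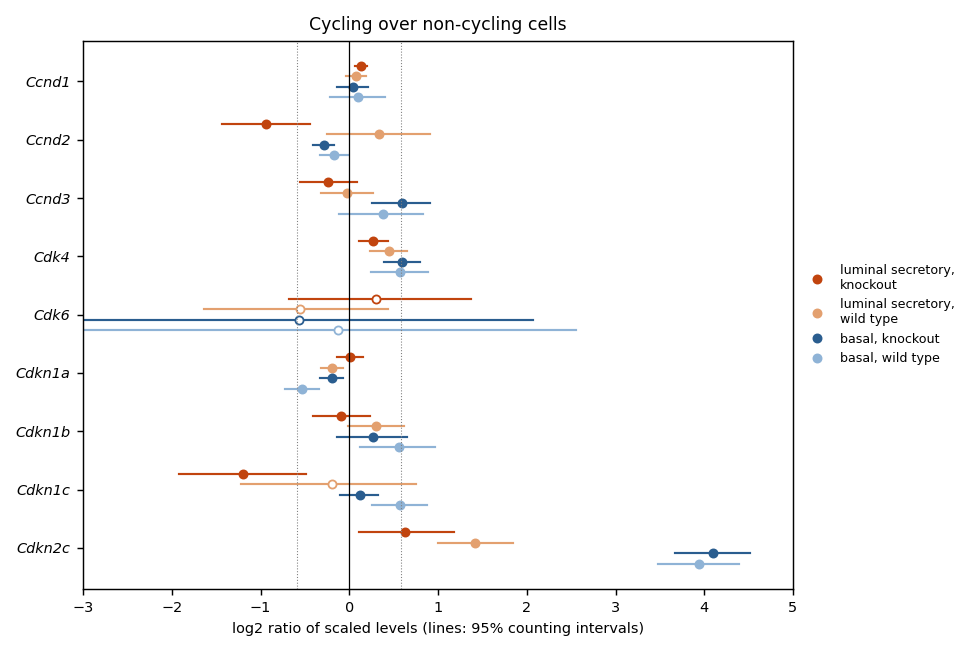
Log2 ratio of scaled levels, cycling over non-cycling cells of the same library, for the 9 genes in luminal secretory and basal cells. Lines are 95% counting intervals cut at the axis limits, filled points have at least 50 UMIs over both pools, open points fewer, and dotted lines mark 1.5-fold. Cdkn2c stands at 4.09 and 3.94 in basal cells, and Ccnd1 lies between 0.04 and 0.13 in all 4 pairs.

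Luminal secretory cells of the 2 libraries also differed in how much milk protein RNA they held, and Ccnd1 levels differed along that range. Non-cycling cells were divided by the share of their UMIs from milk protein genes, into under 5% (224 knockout and 74 wild type cells), 5 to 15% (136 and 114), 15 to 35% (72 and 620) and over 35% (21 and 1297, the knockout too few to use). These are ranges of a continuous score and not cell types, and 69 of 453 knockout and 174 of 2105 wild type cells lay within 1 percentage point of a limit.

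Ccnd1 was lower in each range of higher milk share, in both libraries. Its level was 884 (840 to 931), 608 (565 to 654) and 317 (280 to 358) in the first 3 ranges of the knockout, and 528 (448 to 619), 292 (247 to 343), 159 (145 to 173) and 135 (126 to 144) in the 4 ranges of the wild type. Knockout over wild type at matched range was 0.74 (0.50 to 0.99), 1.06 (0.80 to 1.32) and 1.00 (0.78 to 1.22) on the log2 scale. The difference was thus smaller at matched milk share than the 2.00 over all non-cycling cells, and present in each range. Milk protein genes also gave 1.66% of UMIs in wild type basal and 4.10% in wild type hormone-sensing cells, against 0.198% and 0.184% in the knockout. Carried-over milk RNA can thus add more to the share of a wild type cell. Whether the low ranges hold like cells in the 2 libraries was not tested.

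Cdk4 was 128, 103 and 81.5 in the knockout and 66.0, 92.1, 59.1 and 30.4 in the wild type. Its matched log2 ratios were 0.95 (0.27 to 1.71), 0.16 (-0.33 to 0.68) and 0.46 (0.04 to 0.87), so only the first passed the fold rule. Cdkn1a went the other way in the wild type, where the levels were 93.9, 76.4, 129 and 174, while the knockout had 146, 129 and 152. Its matched ratios were 0.64 (0.06 to 1.27), 0.75 (0.23 to 1.30) and 0.23 (-0.07 to 0.52), against -0.13 over all non-cycling cells. Cdkn1a was thus higher in the knockout at low milk share, although the whole pools had nearly equal levels. With plain CPM the wild type Cdkn1a levels were 95.3, 74.1, 94.8 and 83.2, so the rise along the milk range is not seen on that scale. Ccnd3 had overlapping intervals between the libraries in each of the 3 shared ranges.

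**Figure D5:**
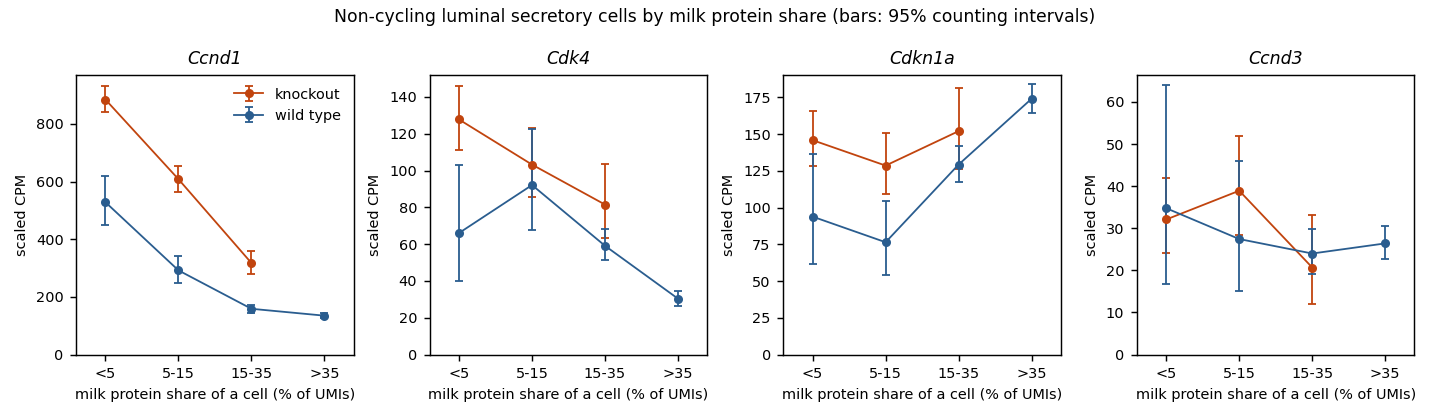
Scaled CPM of Ccnd1, Cdk4, Cdkn1a and Ccnd3 in non-cycling luminal secretory cells by milk protein share of the cell (percent of UMIs), knockout orange and wild type blue. Points are sums over the cells of a range, bars are 95% Poisson intervals, and the knockout has no point over 35% because it had 21 cells there. Ccnd1 goes from 884 to 317 in the knockout against from 528 to 135 in the wild type.

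Within single luminal secretory clusters the Ccnd1 difference also kept its direction. The log2 ratio was 1.75 (1.64 to 1.87) in a luminal progenitor-like cluster of 394 knockout and 874 wild type cells, whose leading genes included the immunoglobulin genes Igkc and Ighg2c. It was 2.08 (1.97 to 2.19) in the cluster of cycling cells (267 and 376) and 0.72 (0.49 to 0.96) in a Kit and Aldh1a3 positive progenitor-like cluster (134 and 64). In that last cluster the levels were 859 and 521, the highest wild type level of Ccnd1 in any luminal secretory cluster. Cdk4 stood at 0.76, 1.11 and 1.21 in the 3 clusters. The alveolar cluster held 15 knockout and 1245 wild type cells, so it could not be compared.

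Basal cells of the 2 libraries lay largely in different clusters. A cluster led by Mgp and Chil1 held 2066 knockout and 157 wild type cells and one led by Wif1 and Ccl2 held 924 and 72, while one led by Scn7a and Prelp held 145 and 2347 and one led by S100a6 and Lep held 59 and 1923. There were 10 basal clusters with at least 50 cells of each library. Ccnd1 was 1.73-fold to 3.71-fold higher in the knockout in 10 of 10, the highest in a cluster with 722 knockout but only 9 wild type UMIs. Cdk4 was higher in 8, with a median ratio of 1.44 (lowest cluster 0.92, highest 2.14) and 3 clusters past 1.5-fold. Cdkn1c was higher in 8, with a median of 1.18 (lowest cluster 0.78, highest 1.86) and 2 past it. The pooled basal ratios of these 2 genes, 1.51-fold and 1.61-fold, were thus past the fold rule while most single clusters were not. The pooled Cdk4 ratio was itself close to the line. The rule of 50 UMIs was not applied to single clusters, and a Cdk4 cluster past 1.5-fold had only 5 knockout and 2 wild type UMIs. The other median ratios were 1.13 for Ccnd2, 1.09 for Ccnd3, 0.97 for Cdkn1a, 0.86 for Cdkn1b and 0.81 for Cdkn2c, with the knockout higher in 8, 7, 4, 4 and 2 of 10, and Cdk6 had too few UMIs to compare. The Cdkn2c median leaves out the shared clusters in which the knockout had 0 UMIs, and over all 10 it would be lower. Cdkn1c had its highest cluster level in the same basal cluster in both libraries, 154 in the knockout against 144 in the wild type.

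The wider G1 to S phase machinery was counted from lists chosen without regard to direction but with earlier results of these data known. The counts below stand beside the 17.9% of all genes that were higher and 15.9% lower over all luminal secretory cells, and 13.3% and 13.8% in cycling ones. In luminal secretory cells 7 of 10 E2F and DP genes were higher in the knockout and 0 lower (median log2 1.04 beside 0.07 for all genes), among them E2f8 (1.67), E2f1 (1.28), Tfdp1 (1.19) and E2f7 (1.08). Of 8 E2F targets of S phase entry 7 were higher (median 1.38), with Cdc6, which loads the replicative helicase, at 1.80, the hemimethylated DNA reader Uhrf1 at 1.61 and the thymidine kinase gene Tk1 at 1.44. In cycling cells alone these counts were 5 of 8 (median 0.61) and 4 of 8 (median 0.62). In non-cycling cells alone they were 3 of 6 (median 0.68) and 4 of 6 (median 1.11), where 16.9% of all genes were higher and 17.3% lower. Of the tested cyclin E, cyclin A and CDK2 genes 3 of 5 were higher over all luminal secretory cells (Ccna2 at 1.00, Cdk2 at 0.79, Ccne2 at 0.75), and 0 higher and 1 lower (Cdc25a at -0.68) in cycling cells alone, with Ccna2 at 0.04 (-0.15 to 0.22). In non-cycling cells alone 1 of 4 tested genes of that list was higher and 0 lower.

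The pocket proteins, which D cyclin kinases phosphorylate, did not move as 1 group. Rbl1 (p107) was higher at 1.06 (0.59 to 1.53), Rb1 stood at -0.01 (-0.22 to 0.20) and Rbl2 (p130) at -0.48 (-0.72 to -0.24). The 1 tested gene of the other INK4 inhibitors, Cdkn2d, was higher at 0.74. Trp53 was higher at 1.25 (1.11 to 1.39), and of p53 and its targets 4 of 12 were higher, with Gdf15 (1.65), Bbc3 (0.83) and Sesn2 (0.68) the others, and 2 lower, Trp53inp1 (-1.16) and Ccng1 (-0.74), with a median of 0.24. Of genes that degrade p27 1 of 6 was higher, the F-box gene Skp2 (0.85), a share near that of all genes. Of the D cyclin turnover genes 0 of 8 changed by the fold rule over all luminal secretory cells, with a median of -0.15. Among them Fbxo31 was higher in non-cycling (0.66) and cycling cells (0.77) and Ambra1 lower in cycling cells (-0.70). The CDK-activating kinase and assembly genes had 2 of 5 higher (Ccnh at 0.74 and Hsp90ab1 at 0.67), and other G1 cyclins 0 of 4, with Ccng2 lower in cycling cells (-0.70). In basal cells 0 tested genes of these 10 lists were higher and 2 were lower, Ccna2 at -0.72 (-0.98 to -0.46) and the deubiquitinase gene Usp2 at -0.62. Of all 12208 genes tested there, only 5.05% were higher and 8.07% lower. These shares are smaller than the luminal secretory ones, so the list counts of the 2 classes are not to be compared directly. Cdc25a, Sesn2, Ccng1, Fbxo31, Ambra1, Ccng2 and Usp2 were named after their values were seen, to complete these counts.

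Genes with the most similar pattern were found for the 4 genes that had enough UMIs in all 10 pools of library, class and state. For Ccnd1 these were Phlda1 (Pearson r 0.98), Naa10 (0.96) and Impdh2-ps (0.96), for Ccnd3 Tmem230 (0.98), Rad54l2 (0.96) and Ensa (0.95), for Cdk4 Srsf9 (0.92), Polr2j (0.91) and Psmg4 (0.91), and for Cdkn1a Bag2 (0.98), Rab10 (0.97) and Nop58 (0.97). These are the highest of 5303 genes over 10 pools that come from 2 libraries and share their depth and scaling, so they describe these pools only.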

How the data were processed

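Single-cell RNA counts came from 1 EhfKO and 1 WT library. The authors deposited raw counts: each value is a whole number of UMIs for 1 gene in 1 barcode. Seurat 4.0.4 and GRCm38 (mm10) are named in the submitters' processing notes, and for the aligner and counting tool the sources used here give no name. Of 27179 features, 1314 had no gene symbol and held 1.74% of knockout and 1.36% of wild type UMIs; they named no gene reported. There were 0 unused sample columns.

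Cells were kept with at least 500 genes, 1000 UMIs and at most 20% mitochondrial UMIs. Scrublet in scanpy 1.11.5 was run per library. Its own threshold marked 0 knockout cells, so the wild type threshold of 0.379 was used in both and 38 knockout and 122 wild type cells were left out. Clusters (Leiden, resolution 1, 2000 variable genes, 30 components) were made without the 9 genes, milk, mitochondrial and ribosomal protein genes, and named from fixed markers. UMIs were summed per library, class and state. The scale factor of a pool was the median log2 ratio of its CPM to the mean over 6 pools, on 6006 genes with at least 10 UMIs in each. Levels have exact Poisson, ratios exact conditional and shares exact Clopper-Pearson 95% intervals, which cover counting error only. The total count per library (40066795 and 48720938 UMIs) limits the precision of rare genes. No test was possible.

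Carry-over is the median level of 6 class-restricted genes in the other class over that in their own. On simulated counts with 200 genes changed, increases of 2-fold came back at a median log2 of 0.99 among 11133 luminal secretory genes and 1.01 among 12193 basal genes. The 2 simulated pools of a comparison shared 1 profile apart from these genes and were scaled by their own median ratio. The simulation thus held no difference in milk share and does not check the scale across pools used here. Named genes were all 9, up to 4 of each of 10 pathway lists by size of ratio in luminal secretory cells, and the 3 most similar genes. Genes and lists were chosen with earlier results of these data known. Alternatives covered scaling, cell weight, cell filter, doublets, cluster resolution, carry-over, single clusters and the cycling rule. The value of 1 gene of the pathway lists is not reported here.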

Additional observations from a re-analysis of the deposited data

Results flagged for a closer look

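Cdkn1b differed between libraries in opposite directions in 2 cell classes. Its knockout over wild type log2 ratio was 0.48 in luminal secretory cells and -0.26 in basal cells, with counting intervals that both exclude 0. With 1 library per genotype this difference between classes was not tested.

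Cdk4 was ordered differently between classes in the 2 libraries. Luminal secretory over basal cells gave a log2 ratio of 0.30 in the knockout against -0.45 in the wild type, again with both counting intervals apart from 0. This difference was not tested, and neither ratio reached 1.5-fold on the scale used, while the wild type one was -1.22 with plain CPM.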

How the results depend on the processing

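Genes past 1.5-fold, knockout over wild type, numbered 4 in all luminal secretory cells, 9 with plain CPM and 2 within the cycling cluster or the Kit and Aldh1a3 positive one. Of all genes, 13.2% were higher and 13.4% lower in the cycling cluster, and 12.5% and 11.2% in the Kit and Aldh1a3 positive one. Cdk6 and Cdkn1c had too few UMIs in the cycling cluster. In the other, only Ccnd1, Cdk4, Cdkn1a and Cdkn1b had enough, so these cluster counts are not out of 9. Plain CPM gave 8 in place of 5 in non-cycling and 7 in place of 3 in cycling luminal secretory cells, and on that scale 68.1% of all genes were higher over all of these cells, 63.3% in non-cycling and 58.9% in cycling ones. In hormone-sensing cells plain CPM, CPM outside milk protein genes and a median ratio of 0 within the pair each gave 1 in place of 2. The basal count of 3 stayed within 1.5 times of that number under each alternative run, but the basal Cdk4 call was lost with equal weight per cell, at 0.54. For cycling over non-cycling luminal secretory cells, cycling called after thinning gave 1 in place of 3 in the knockout. In the wild type, plain CPM gave 3 in place of 1, and CPM outside milk protein genes, equal weight per cell and cycling called from replication genes gave 2. Of called ratios 3 reversed: Ccnd2 in luminal secretory cells to -1.53 within the Kit and Aldh1a3 positive cluster, Cdkn1c in cycling luminal secretory cells to -1.67 with carry-over subtracted, and Ccnd2, cycling over non-cycling knockout cells, to 0.021 with thinned cycling calls. The cause was not tested. Of 21 called ratios, 20 kept direction and fold under each other scaling, 19 with equal weight per cell, a looser cell filter or doublets kept, and 21 at cluster resolutions 0.5 and 2. Carry-over subtraction gave no value for 3 of them, because nothing was left to compare. The luminal secretory Ccnd1 ratio ranged from 0.72 to 2.87 over all alternatives. No paired analysis was possible because each genotype has 1 library. Depth limits Cdk6 everywhere, and most of the 9 genes in hormone-sensing cells, which held 145 and 126 cells.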
